A study of Mus musculus with 6 samples.

Results

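The genes described here encode enzymes of the pentose phosphate pathway and the synthetases that use its product. They are TKT, TKTL1, TALDO1, PGD, RPIA, RPE, PRPS1 and PRPS2. The set was built around TKT, which was selected on its lower level in Dox, and the other genes were taken because they belong to the same pathway. Of 9 genes in the set, 8 were analysed here, out of 58870 genes in all, and 1 was not analysed here. The 8 genes had 72 of the 208621 isoforms, and 63 of the 72 had a count in at least 1 sample. Because TKT was selected on the comparison of Dox with No Dox, its values are given as a description with no test.

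RNA-seq was performed in 77-5 cells. These are a single clone of T-REx-293, a human embryonic kidney line of HEK293 origin with a tetracycline-controlled system, and the clone carries a minigene made from a mouse BAC with Ntrk2 (TrkB). In the Dox group (n = 3) the cells received doxycycline to induce Rbfox1, an RNA-binding protein that regulates splicing, and in the No Dox group (n = 3) the same clone was untreated. The labels give 0.5 mg/ml for 48 h, whereas legends in the study state the unit as micrograms. Both groups carried the minigene and the inducible Rbfox1, so an effect of doxycycline itself and an effect of Rbfox1 cannot be told apart. Nothing in the labels says that the 3 samples of a group were separate cultures, so p-values measure only the spread between these samples. RBFOX1 was at 189.8, 188.9 and 186.4 TPM in the Dox samples, against 6.92, 8.42 and 7.26 TPM in the No Dox samples, so each library matched its label. TPM is a transcript level scaled for isoform length and for library size.

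Libraries held 59822964 to 65774104 expected counts, which are the fragments that RSEM assigned to isoforms. Of 6 genes that HEK293 cells are known to express, 5 had a mean of at least 1 TPM in both groups, and the exception was NEFM. Summed, these markers were at 1008 to 1045 TPM in Dox and at 1132 to 1148 TPM in No Dox. By edgeR 4 of the 6 were lower and 1 higher, where 26.5% of all genes tested were lower and 24.9% higher. Nothing is read from these counts, and the part of the markers in the results below was not tested. Of 10 markers of other cells, INS and UMOD were at 0 in all samples and the highest value was 0.50 TPM. In bulk samples, fewer cells with a transcript and less of it per cell cannot be told apart.

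The pentose phosphate pathway branches from glycolysis. Its oxidative branch makes NADPH, which is used in biosynthesis and in the defence against oxidants, and yields ribulose phosphate. Its non-oxidative branch converts pentose phosphates into one another and back into glycolytic sugars by reversible steps. Ribose phosphate leaves the pathway when it is activated to PRPP, the donor of the sugar in nucleotides.

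TKT encodes transketolase, a thiamine-dependent enzyme that links the non-oxidative branch to glycolysis. TKT (ENSG00000163931.16) was at 86.5, 82.3 and 80.0 TPM in the Dox samples, against 333.2, 333.7 and 328.6 TPM in the No Dox samples. All Dox samples were far below all No Dox samples. The mean was 82.9 ± 3.3 TPM in Dox and 331.8 ± 2.8 TPM in No Dox (SD, n = 3 each), a change of -75.0%. The same was seen before scaling for length, with 5971, 5581 and 5686 expected counts in Dox and 23580, 22388 and 22127 in No Dox. After normalisation of the counts the log2 fold change was -2.02 ± 0.03 (SE), and it was between -2.04 and -1.97 under all alternatives run. Of 18264 genes tested by edgeR, 14 had a lower log2 fold change than TKT. None of these 14 was among the 9035 genes with a mean of at least 10 TPM in No Dox.

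**Figure D1:**
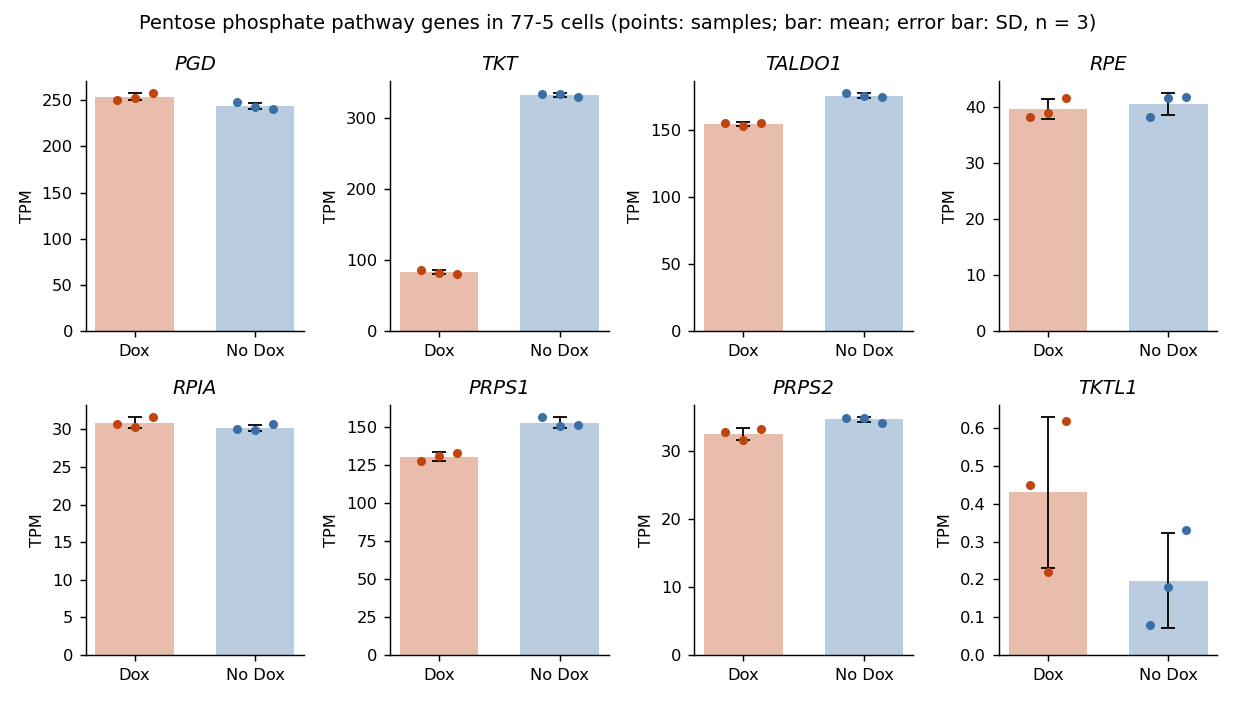
TPM (y axis, from 0, a scale of its own in each panel) of the 8 genes in each Dox sample (orange points, left) and No Dox sample (blue points, right), with the group mean (bar) and SD (error bar, n = 3). TKT averaged 82.9 TPM in Dox and 331.8 TPM in No Dox, while the means of PGD, TALDO1, RPE, RPIA, PRPS1 and PRPS2 differed by at most 14.6%.

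The place of TKT among the genes of the pathway differed between the groups. In Dox the order of mean TPM was PGD, TALDO1, PRPS1, TKT, RPE, PRPS2, RPIA and TKTL1. In No Dox TKT came first and was followed by PGD, TALDO1, PRPS1, RPE, PRPS2, RPIA and TKTL1. Within these orders the samples of neighbouring genes did not overlap, except for PRPS2 and RPIA in Dox. TKT made up 12.0, 11.4 and 10.9% of the summed TPM of the 8 genes in the Dox samples, against 32.7, 33.1 and 32.8% in the No Dox samples. The sum of all 8 genes was 724.7 ± 7.3 TPM in Dox and 1009 ± 8 TPM in No Dox (SD, n = 3 each). Without TKT the sum was 641.8 ± 9.8 TPM in Dox and 677.4 ± 6.6 TPM in No Dox. The ratio of TALDO1 to TKT, the transferases of the non-oxidative branch, was 1.80, 1.86 and 1.94 in the Dox samples, against 0.533, 0.525 and 0.530 in the No Dox samples.

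The isoforms of TKT differed in how far they were lower in Dox. RSEM assigned counts to all 14 listed TKT isoforms, and 9 of them had a lower TPM in every Dox sample than in any No Dox sample. The TPM of 2 isoforms, TKT-207 and TKT-211, was higher in every Dox sample, and that of TKT-201, TKT-205 and TKT-206 overlapped between the groups. Among all 138075 isoforms with a count, 9.7% were lower and 11.1% higher in every Dox sample, and as TKT was selected on this comparison nothing is read from its counts. Reads are divided among isoforms that share exons, so values of single isoforms are model estimates.

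TKT-202, of 2075 bases, was the most abundant isoform in both groups. It was at 32.6, 34.1 and 27.9 TPM in the Dox samples, against 143.7, 138.6 and 138.6 TPM in the No Dox samples. This was 4.45-fold lower in Dox. TKT-213, a short isoform of 610 bases, was at 20.5, 15.7 and 17.99 TPM in Dox and 83.7, 83.6 and 85.5 TPM in No Dox. Because TPM is scaled for length, TKT-213 held 21.7 ± 2.4% of the TPM of TKT in Dox and 25.4 ± 0.5% in No Dox, but only 5.95 ± 0.83% and 7.05 ± 0.20% of its counts (SD, n = 3 each). TKT-204, of 1941 bases, was at 15.7, 16.3 and 17.5 TPM in Dox and 48.9, 54.5 and 49.4 TPM in No Dox. Its share of the gene was higher in every Dox sample, at 19.9 ± 1.8% in Dox and 15.4 ± 0.9% in No Dox.

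TKT-203, of 2831 bases, had the lowest ratio of the isoforms past the filter on low counts. It was at 3.78, 2.48 and 1.89 TPM in the Dox samples, against 22.9, 22.0 and 23.9 TPM in the No Dox samples, 8.46-fold lower in Dox. Its share of the gene was 3.25 ± 1.03% in Dox and 6.93 ± 0.35% in No Dox. In this share the Dox samples differed among themselves more than the No Dox samples did, and all were lower. TKT-210, of 1871 bases, was at 4.07, 4.59 and 4.46 TPM in Dox and 13.5, 12.2 and 13.4 TPM in No Dox, 2.98-fold lower in Dox.

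A few minor isoforms did not follow the gene. They were picked out after their values were seen. TKT-211, of 1055 bases, was at 2.27, 2.15 and 1.98 TPM in the Dox samples, against 0.65, 0.87 and 0.41 TPM in the No Dox samples, a ratio of 3.32. Its expected counts were 89.1, 78.4 and 79.3 in Dox and 25.9, 32.8 and 15.5 in No Dox. Thus TKT-211 was higher in every Dox sample while the gene as a whole was lower. TKT-207, of 1972 bases, was at 1.02, 0.67 and 0.89 TPM in Dox and 0.63, 0.65 and 0.46 TPM in No Dox, and the gap between the groups was small. TKT-206, the longest isoform with 7286 bases, was at 0.76, 0.82 and 0.68 TPM in Dox and 0.63, 0.64 and 0.79 TPM in No Dox, with overlapping groups. Together TKT-206, TKT-207 and TKT-211 made up 4.51 ± 0.14% of the TPM of TKT in Dox and 0.57 ± 0.07% in No Dox (SD, n = 3 each). Their summed TPM was 3.75 ± 0.27 in Dox and 1.91 ± 0.25 in No Dox. The share thus also depended on the lower TPM of the whole gene in Dox. The files do not say which TKT isoforms are translated.

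**Figure D2:**
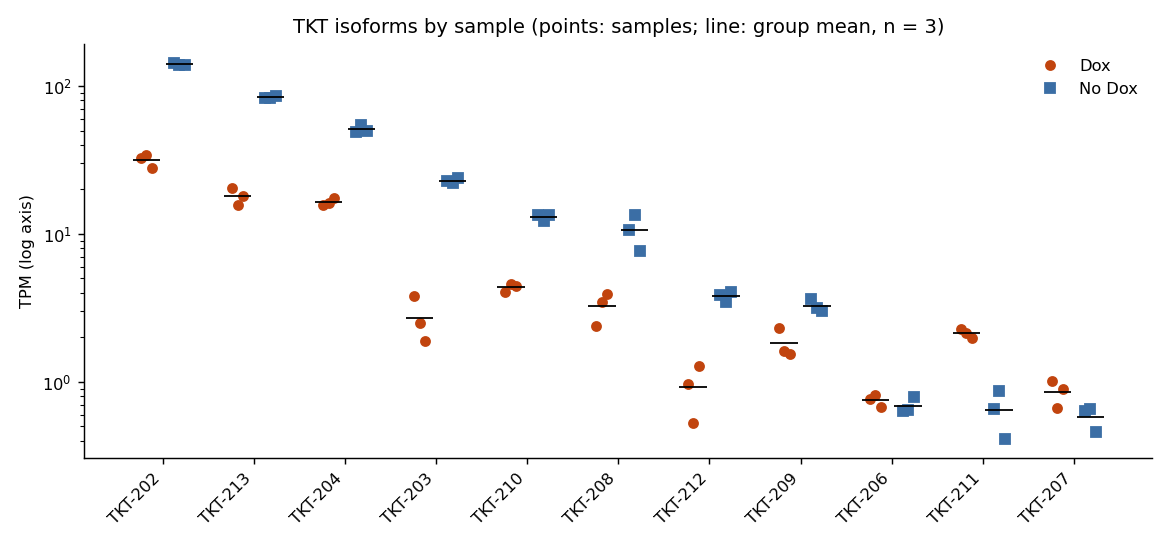
TPM on a log axis (y) of the 11 TKT isoforms past the filter on low counts (x), for each Dox sample (orange circles, left of each pair) and No Dox sample (blue squares, right), with the group mean as a line (n = 3). TKT-202 averaged 31.5 TPM in Dox and 140.3 TPM in No Dox, whereas TKT-211 averaged 2.13 TPM in Dox and 0.64 TPM in No Dox.

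The genes whose pattern over the 6 samples was closest to that of TKT were NDRG1, IQGAP1, RUFY1, PHGDH and RBFOX2. Only genes with a mean of at least 10 TPM in No Dox, the group in which TKT was higher, were compared. Likeness was measured as the root mean square difference in log2 CPM (counts scaled to library size), centred per gene, from TKT. It was 0.07 for NDRG1, 0.09 for IQGAP1, 0.12 for RUFY1, 0.15 for PHGDH and 0.16 for RBFOX2, out of 9034 genes compared. NDRG1 was at 39.8, 35.2 and 37.4 TPM in Dox and 157.0, 137.1 and 144.0 TPM in No Dox, a log2 fold change of -2.02. These genes have log2 fold changes between -2.02 and -1.71, and the likeness is mostly in the difference between the groups.

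The next comparison asked whether the other genes of the pathway differed between Dox and No Dox. Of the 7 tested, TALDO1, PRPS1 and PRPS2 fell, TKTL1 rose and PGD, RPE and RPIA did not pass the edgeR test at an adjusted p of 0.05. Among all genes tested, 51.4% passed, with 26.5% lower and 24.9% higher in Dox. The median log2 fold change of the 7 genes was -0.09, and that of all genes tested was 0.005. In TPM the groups did not overlap in 4 of the 7 genes, TALDO1, PGD, PRPS1 and PRPS2, and in 50.3% of all genes tested. As the set was put together with this comparison known, nothing is read from these counts.

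In the oxidative branch, PGD encodes phosphogluconate dehydrogenase, which makes NADPH and ribulose phosphate. PGD (ENSG00000142657.21) was at 250.2, 252.5 and 257.8 TPM in the Dox samples, against 247.6, 242.4 and 240.8 TPM in the No Dox samples. The Dox samples were higher by a narrow margin. On normalised counts the log2 fold change was 0.02 ± 0.03 (SE), with a 95% interval from -0.03 to 0.08 and an edgeR adjusted p of 0.45. Without TMM, scaled by library size only, PGD had a log2 fold change of 0.07 and an edgeR adjusted p of 0.022, so its call depended on the scaling. PGD was thus the most abundant gene of the set in Dox and came after TKT in No Dox.

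In the non-oxidative branch, RPIA encodes ribose phosphate isomerase and RPE encodes ribulose phosphate epimerase, which together supply the substrates of transketolase. RPIA (ENSG00000153574.9) was at 30.7, 30.3 and 31.7 TPM in the Dox samples, against 30.1, 29.9 and 30.7 TPM in the No Dox samples, and the groups overlapped. The log2 fold change of RPIA was -0.005 ± 0.034 (SE), with a 95% interval from -0.08 to 0.07 and an edgeR adjusted p of 0.93. RPE (ENSG00000197713.15) was at 38.1, 38.9 and 41.5 TPM in the Dox samples, against 38.1, 41.5 and 41.6 TPM in the No Dox samples. The RPE groups overlapped as well. Its log2 fold change was -0.09 ± 0.04 (SE), with a 95% interval from -0.16 to -0.01 and an edgeR adjusted p of 0.053. This was close to the threshold, and RPE passed in 4 of 13 alternatives. These included leaving out Dox replicate 3 (edgeR adjusted p = 0.026) or No Dox replicate 1 (edgeR adjusted p = 0.042). In the other 9 it did not pass, as with DESeq2 (adjusted p = 0.081) or by library size only (edgeR adjusted p = 0.39).

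TALDO1 encodes transaldolase, which works with transketolase to return pentose phosphates to glycolysis. TALDO1 (ENSG00000177156.11) was at 155.5, 153.1 and 155.2 TPM in the Dox samples, against 177.6, 175.2 and 174.3 TPM in the No Dox samples. All Dox samples were lower. The log2 fold change was -0.22 ± 0.03 (SE), with an edgeR adjusted p of 3.3e-06, and the call was kept under all alternatives run. In mean TPM the change of TALDO1 was -12.0%, beside -75.0% for TKT.

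TKTL1 encodes a transketolase-like protein and was close to the limit of detection. TKTL1 (ENSG00000007350.17) had 21, 20 and 29 expected counts in the Dox samples, against 8, 5 and 16 in the No Dox samples. It was at 0.45, 0.22 and 0.62 TPM in Dox and 0.08, 0.18 and 0.33 TPM in No Dox, and in TPM the groups overlapped. The log2 fold change was 1.22 ± 0.38 (SE), with an edgeR adjusted p of 0.013. This call was lost with DESeq2 (adjusted p = 0.066) and without Dox replicate 3, No Dox replicate 1 or No Dox replicate 2 (edgeR adjusted p = 0.055, 0.058 and 0.068). The level of TKTL1 in Dox, 0.43 ± 0.20 TPM, was small beside the difference of -248.9 TPM (Dox minus No Dox) for TKT.

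PRPS1 and PRPS2 encode the PRPP synthetases that activate ribose phosphate for nucleotide synthesis. PRPS1 (ENSG00000147224.11) was at 127.2, 130.8 and 133.1 TPM in the Dox samples, against 156.7, 150.3 and 151.1 TPM in the No Dox samples. PRPS2 (ENSG00000101911.12) was at 32.8, 31.5 and 33.2 TPM in the Dox samples, against 34.8, 34.8 and 34.1 TPM in the No Dox samples. Both were lower in all Dox samples, PRPS2 by a narrower margin. The log2 fold change of PRPS1 was -0.26 ± 0.03 (SE), with an edgeR adjusted p of 8.6e-07. For PRPS2 it was -0.13 ± 0.03 (SE), with an edgeR adjusted p of 0.0036, and this call was lost in limma on log2(TPM + 1) (adjusted p = 0.069). The TPM ratio of PRPS1 to PRPS2 was 3.884, 4.151 and 4.006 in the Dox samples, against 4.501, 4.318 and 4.433 in the No Dox samples.

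**Figure D3:**
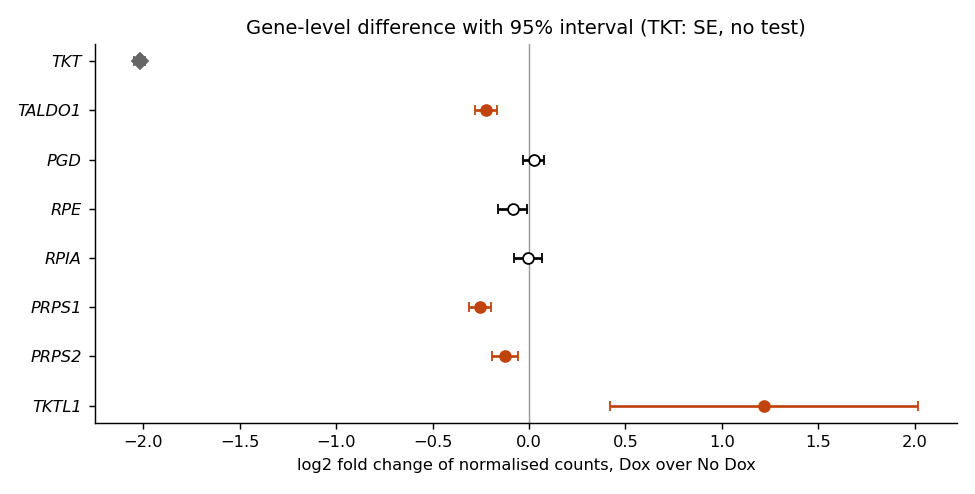
Log2 fold change of normalised counts, Dox over No Dox (x axis), for the 8 genes (y axis). Bars are 95% intervals, filled orange points passed the edgeR test and open points did not, and the grey diamond is TKT with its SE and no test. TKT lies at -2.02, and TALDO1, PRPS1 and PRPS2 lie between -0.26 and -0.13.

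Isoforms of these genes were then compared. Of 33 isoforms tested by limma-voom, 2 changed, TALDO1-201 and PRPS1-204, and both fell. Among all isoforms tested 12.6% passed, and nothing is read from the share here. TALDO1-201 was at 118.8 TPM in Dox and 135.9 TPM in No Dox on average, a log2 fold change of -0.21 ± 0.02 (SE) with a limma adjusted p of 0.003. PRPS1-204 was at 125.4 TPM in Dox and 144.9 TPM in No Dox on average, a log2 fold change of -0.22 ± 0.03 (SE) with a limma adjusted p of 0.0027. Each was the most abundant isoform of its gene.

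Isoform percentage, the share of a gene's TPM assigned to an isoform, was compared next. PGD-201 held 94.0 ± 0.2% of PGD in Dox and 93.7 ± 0.8% in No Dox (SD, n = 3 each). PRPS1-204 held 96.2 ± 0.5% of PRPS1 in Dox and 94.9 ± 2.9% in No Dox. For PRPS2, the share of PRPS2-202 was 90.4 ± 2.8% in Dox and 90.7 ± 0.7% in No Dox, and PRPS2-203 took 7.30 ± 1.21% in Dox and 6.36 ± 1.38% in No Dox. In each of these shares the samples of Dox and No Dox overlapped. In TALDO1, the share of TALDO1-201 was 76.9 ± 0.4% in Dox and 77.3 ± 0.9% in No Dox, and that of TALDO1-203 was 18.6 ± 0.6% in Dox and 18.3 ± 1.2% in No Dox. RPIA had only 1 listed isoform, RPIA-201.

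RPE was divided among more isoforms, 14 of 16 with counts. RPE-202 held 48.2, 49.2 and 46.2% of the gene in the Dox samples, against 51.0, 48.5 and 49.8% in the No Dox samples. RPE-210, of 796 bases, held 19.6, 17.8 and 24.6% in Dox and 16.4, 17.7 and 9.68% in No Dox. The Dox samples were all higher for RPE-210, but the gap of 17.8 to 17.7% was narrow. RPE-205 held 5.90, 3.14 and 3.01% in Dox and 6.77, 7.16 and 6.04% in No Dox. Its log2 fold change was -0.83 ± 0.26 (SE), with a limma adjusted p of 0.094. Of 11 alternatives, RPE-205 passed only without Dox replicate 1 (limma adjusted p = 0.041), and the other 10 did not pass. The shares of RPE-203 and RPE-208 overlapped between the groups, and RPE-203 was listed at 0% in No Dox replicate 1.

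Isoform usage, the change of an isoform relative to other isoforms of the gene, was examined by diffSplice of limma in PGD, PRPS1, PRPS2, RPE and TALDO1. None of the 5 genes passed, against 27.5% of all genes tested. On simulated data diffSplice called too many genes, so that share is not taken as held to the nominal error rate. The simulation drew each isoform independently with a variance of its own, so it need not match these data. The diffSplice adjusted p was between 0.19 for RPE and 0.87 for PRPS1. At an unadjusted p under 0.05 the count was 0 with diffSplice, and with diffSpliceDGE it was 0 both adjusted and unadjusted. This does not show that usage was the same.

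**Figure D4:**
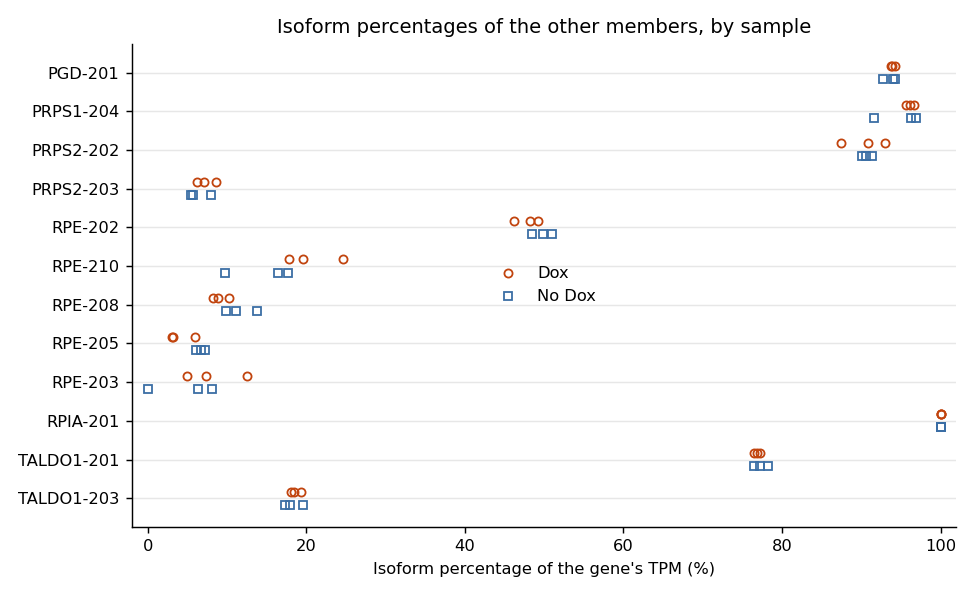
Isoform percentage of the gene's TPM (x axis, %) in each Dox sample (orange circles, upper) and No Dox sample (blue squares, lower) for the 12 isoforms of PGD, PRPS1, PRPS2, RPE, RPIA and TALDO1 with at least 1 TPM and 5% of their gene in a group. The main isoform of PGD lies near 94.0% in both groups, and the isoforms of RPE are the most dispersed.

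Further genes of the pathway were examined as a list chosen by function, with earlier results of these data known. Of 13 genes, 10 were tested by edgeR, 3 rose, 4 fell and 3 did not pass, with a median log2 fold change of -0.05. Beside this list, 24.9% of all genes tested rose and 26.5% fell, 51.4% in all, with a median of 0.005, and nothing particular to the list is read from its counts. SHPK, which phosphorylates sedoheptulose and so feeds the substrates of transketolase and transaldolase, was at 6.14, 5.62 and 5.43 TPM in the Dox samples, against 11.4, 12.0 and 11.5 TPM in the No Dox samples. All Dox samples were lower for SHPK, with a log2 fold change of -1.05 ± 0.05 (SE) and an edgeR adjusted p of 3.9e-11. IDNK, a gluconate kinase, rose by a log2 fold change of 0.97 (edgeR adjusted p = 4.6e-05), and averaged 3.67 TPM in Dox and 1.88 TPM in No Dox. TIGAR, a phosphatase that favours entry of sugars into the pathway, rose on counts with a log2 fold change of 0.32 (edgeR adjusted p = 1.7e-05), while its TPM overlapped between the groups. The paralogs TKTL2, RPEL1 and PRPS1L1 did not pass the filter on low counts.

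Since transketolase needs thiamine diphosphate, genes of thiamine transport and of other enzymes that use the cofactor were examined. Of 12 tested, 2 rose, 7 fell and 3 did not pass, with a median log2 fold change of -0.11. Among all genes tested 24.9% rose and 26.5% fell. Scaled by library size only, 3 of the 12 rose and 5 fell. HACL1 and BCKDHA, which encode a thiamine-dependent lyase of peroxisomes and a subunit of branched-chain ketoacid dehydrogenase, fell by 0.73 and 0.56 on the log2 scale (edgeR adjusted p = 1.8e-10 and 5.5e-08). OGDH and DHTKD1, of mitochondrial ketoacid dehydrogenases, rose by log2 fold changes of 0.31 and 0.17 (edgeR adjusted p = 6.1e-06 and 8.9e-05). Of 24 tested genes of NADPH supply and of the NRF2 response, which includes several pentose phosphate genes among its targets, 8 rose, 8 fell and 8 did not pass, with a median of -0.02, against the same 24.9% and 26.5% of all genes tested. Both lists were chosen with earlier results of these data known, neither was tested against other genes, and nothing is read from their counts. GSR, the NADPH-dependent glutathione reductase, was at 58.2, 61.0 and 58.7 TPM in the Dox samples, against 93.8, 93.4 and 92.0 TPM in the No Dox samples (log2 fold change -0.71, edgeR adjusted p = 7.6e-12). NADK, which makes the NADP pool, fell by 0.57 on the log2 scale (edgeR adjusted p = 9.6e-11). The cystine transporter gene SLC7A11 and the mitochondrial transhydrogenase gene NNT rose by log2 fold changes of 0.43 and 0.39 (edgeR adjusted p = 1.6e-08 and 3.4e-08).

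Near-identical copies were examined because they could share reads with the genes. The tables list 10 pseudogenes named after PGD, RPE, RPIA and PRPS1, none of them named after TKT or TALDO1. Only 3 of the 10 had any TPM, at most 0.18 TPM in a sample.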

How the data were processed

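Stranded, paired-end mRNA libraries of 3 Dox and 3 No Dox samples were analysed. Per the labels and the study, trimming used cutadapt, alignment to GRCh38 used STAR, and isoform estimates came from RSEM. Not given in the sources used here: tool versions and whether RSEM used strand. The deposited expected counts are estimated fragments per isoform, without normalization. The deposited TPM is scaled for effective length and library, and the deposited isoform percentage (percent of a gene's TPM) comes from RSEM. Other deposited columns give isoform lengths. Although the organism label is mouse, the tables hold human genes. No human reference was used, so no coordinates or sequences are printed.

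Expected counts were summed per gene, rounded and tested with edgeR 4.0.16 (TMM, filterByExpr, glmQLFTest). The SE of an edgeR log2 fold change was its size divided by the square root of the F statistic of the test. The 95% intervals were built from that SE. For isoforms limma-voom (limma 3.58.1) was used, and for usage diffSplice, which assumes a common variance within a gene. Tests were two-sided over all features, with Benjamini-Hochberg adjustment, a threshold of 0.05 and R 4.3.3. Alternatives included DESeq2 1.42.0, other scalings, filters, units, a replicate block and leaving out each sample. The scripts were tested on simulated data, in which isoforms were drawn independently, each with a variance of its own. There diffSplice called too many genes, so its share of genes called is not taken as held to the nominal error rate. The members and lists were chosen with earlier results of these data known. All members analysed were named, isoforms from 1 TPM and 5% of the gene, and the 2 largest rises and falls of each other list. A gene that this rule names is counted in its list but is not reported here.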

Additional observations from a re-analysis of the deposited data

How the results depend on the processing

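The number of genes other than TKT that changed was 4, and 2 in limma on log2(TPM + 1) and on log2(TPM + 0.1), where the calls of TKTL1 and PRPS2 were lost. It was 3 with DESeq2 and 5 with the replicate number as a block, where RPE also passed (edgeR adjusted p = 0.025). Same-numbered samples were not paired by the labels, and the correlations of their deviations were 0.028 to 0.057, each sample correlating best with its own number. RPE also passed without a filter on low counts (edgeR adjusted p = 0.02). The TKT log2 fold change was -1.97 by library size only, where the median of all genes shifted by 0.05. With a minimum log2 fold change of 0.2, the thiamine genes called were 5, against 9, and the genes of NADPH and NRF2 called were 8, against 16; the stricter rule itself leaves out small changes. The log2 fold change of RPIA, never called, was 0.043 by library size only and 0.031 and 0.032 in limma on TPM with pseudocounts of 1 and 0.1, and -0.025 to 0.007 without a replicate. That of PRPS2-203 was -0.01 to 0.27 without a replicate. Counts of changed isoforms (2 to 3) and of changed usage (0) moved little under the alternatives run. TKTL1 had only 5 to 29 counts per sample.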
